A study of Mus musculus with 18 samples.

Results

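Saline-injected tibialis anterior muscle of dysferlin-deficient A/J mice was set against the same muscle of dysferlin-sufficient A/JOlaHsd mice. The comparison used the 6 arrays whose titles name these strains and saline, of 18 in all, with 3 per strain. The A/J strain is dysferlin deficient and A/JOlaHsd is wild-type, with dysferlin, by the phenotype labels. All mice were 2 months old, and in every one of these legs the tibialis anterior, a fast muscle at the front of the shin, had been given 3 saline injections over 10 days while the opposite leg was given single-stranded RNA (ssRNA), which is sensed by Toll-like receptor 7. The ssRNA legs of both strains gave a second comparison on other arrays, with 3 A/J arrays and the 2 A/JOlaHsd arrays that hold muscle signal. Saline legs of A/J-MyD88 deficient mice, which lack both dysferlin and the Toll-like receptor adaptor MyD88 by their labels, are given as values only, since they would share the A/JOlaHsd arrays. The question was how dysferlin-deficient and dysferlin-sufficient muscle differ in the leg that was not given ssRNA. A saline leg is an injected leg of a mouse whose other leg was given ssRNA. Neither an uninjected muscle nor a mouse without ssRNA was part of the comparison, and an effect of ssRNA on the opposite leg was not tested.

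Dysferlin is a membrane protein of muscle fibres that takes part in resealing tears of the fibre's surface. Its loss causes slowly progressive muscular dystrophy in humans, and in A/J mice a retrotransposon inserted in an intron disrupts the gene. Dysferlin-deficient muscle is known for repeated fibre injury and for infiltration by macrophages, which grows with age.

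Array signal and strain went together. The mean raw signal per array was 120.5 to 131.8 in A/J saline legs and 41.3 to 50.2 in A/JOlaHsd saline legs, and 37.2% to 37.8% and 30.6% to 33.2% of the probes were above background (detection p under 0.05). Rank correlations between arrays were 0.961 to 0.972 within A/J, 0.910 to 0.926 within A/JOlaHsd and 0.828 to 0.892 between the strains. The labels name no chip, run or animal behind an array, so strain and array set cannot be told apart. Standard errors and p-values measure only a spread between arrays, and 3 arrays per strain limit the precision. That spread is pooled for each gene over all groups in the fit, ssRNA and MyD88 deficient legs included. For a gene that varies more between the A/JOlaHsd saline arrays than this pooled spread, the standard error can be too small. A/JOlaHsd ssRNA array 2 had a mean signal of -0.33 with 3.71% of probes detected and was left out. Values below are log2 intensities after background correction and quantile normalization, and a difference is A/J minus A/JOlaHsd. Quantile normalization sets all arrays to 1 distribution, under which the median gene differed by -0.02 between the strains. Centring each array on its median instead moved the median gene to 0.76, and centring on the probes detected on every array moved it to -0.60. A difference is therefore one relative to the other genes. Neither centring gives absolute RNA levels. On the centred values themselves, not set against the median gene, Ccl21a, Asah1, Cenpa, H2-Eb1, Tmem33, Lgmn, Acta2, Sspn, Ifi27l2a, Crtap, Serping1, Mcm4, Myd88, Cd74 and Sparc turned from lower to higher under the first centring, and Trim30a from higher to lower under the second, with no other gene named below that was called turning under either.

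The tissue label was checked against its markers. All 7 markers of skeletal muscle fibres were detected on every array of both strains, as were all 5 of fibroblasts and all 3 of Schwann cells. Of 9 macrophage markers, 8 were detected on every A/J array and 6 on every A/JOlaHsd array, and Itgam was on none. Of 6 neutrophil markers, 5 were detected on no array, and of 5 skin markers, 4 were on none. In RNA of whole muscle, fewer cells of a type and less RNA per cell cannot be told apart.

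Of 11233 genes tested, 5303 differed between the saline legs of the strains at an adjusted p under 0.05 (limma, Benjamini-Hochberg over all genes), a background of 47.2%. Of these, 2502 (22.3%) were higher and 2801 (24.9%) lower in A/J, and 744 and 601 of them by over 2-fold. The median standard error of a difference was 0.16. The A/J and A/JOlaHsd arrays did not overlap for 5661 genes (50.4%), so lack of overlap was the rule rather than the mark of a few genes. With such a background, the count of called members of a gene group is read below against 22.3% and 24.9%.

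**Figure D1:**
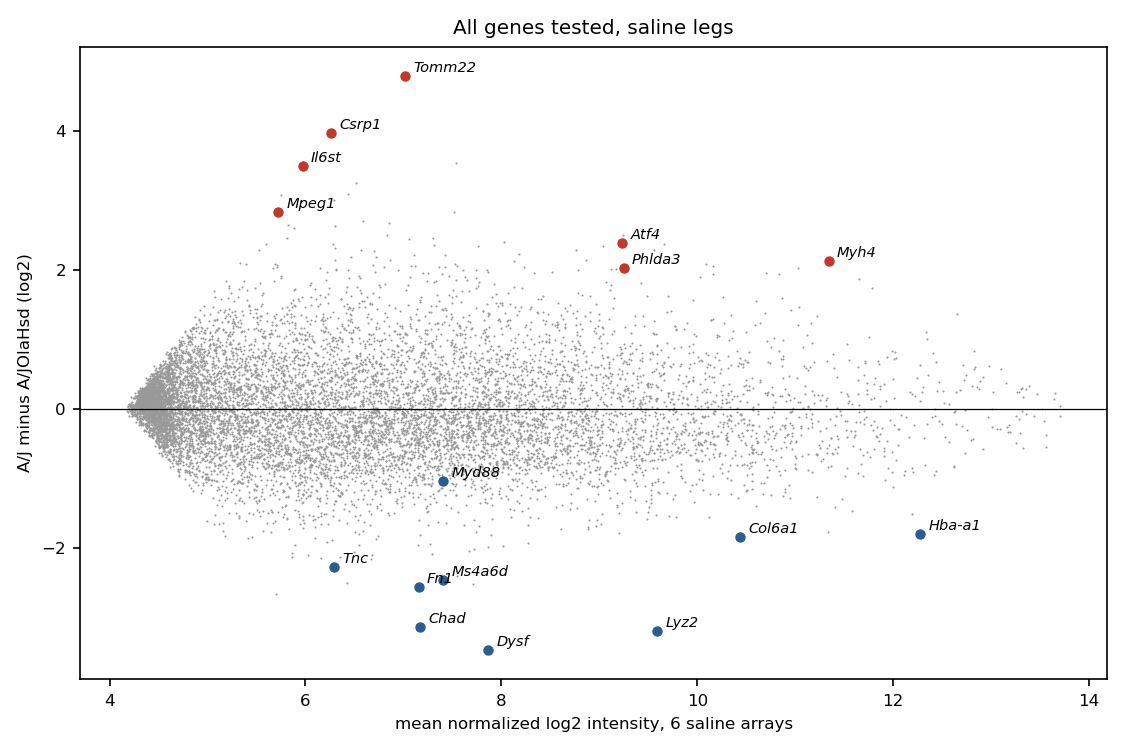
Difference between A/J and A/JOlaHsd saline legs (log2, vertical axis) against the mean log2 intensity of the 6 arrays (horizontal axis). Each grey point is 1 of 11233 genes on its main probe, and coloured points are named genes higher (red) or lower (blue) in A/J. Tomm22 lies highest at 4.80 and Dysf lowest at -3.47.

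Dysf, the dysferlin gene, was the gene lowered most on its main probe. It read 6.13, 6.21 and 6.04 on the A/J arrays, against 9.71, 9.41 and 9.66 on the A/JOlaHsd arrays, so the arrays of the strains lay far apart. The difference was -3.47 ± 0.14 (SE, adjusted p = 1.32e-10). A second probe read 4.67, 4.82 and 4.88 on the A/J arrays, against 7.18, 7.10 and 7.36 on the A/JOlaHsd arrays, and the next 4.64, 4.50 and 4.49 on the A/J arrays, against 6.54, 6.48 and 6.91 on the A/JOlaHsd arrays. Those probes differed by -2.43 and -2.10. The dimmest of the 4 probes went the other way, at 5.80, 5.27 and 5.71 on the A/J arrays, against 4.85, 4.42 and 5.09 on the A/JOlaHsd arrays, a difference of 0.81 (adjusted p over all probes = 0.000860), where 44.6% of 17492 probes were called. In ssRNA legs the main probe differed by -3.80, close to the saline value, and the difference between legs was not called (adjusted p = 0.357). The A/J-MyD88 deficient saline legs averaged 6.15.

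Myd88, the adaptor of most Toll-like receptors, was read by 2 probes that were called in opposite directions. The brighter one read 7.08, 6.84 and 6.73 on the A/J arrays, against 7.95, 7.79 and 8.02 on the A/JOlaHsd arrays, a difference of -1.04 ± 0.17 (SE, adjusted p = 0.000149). The dimmer one read 5.02, 4.99 and 4.79 on the A/J arrays, against 4.17, 4.31 and 4.45 on the A/JOlaHsd arrays, and was called higher (adjusted p over all probes = 0.00155), with no A/JOlaHsd array above background. Its direction between the strains is therefore not settled by these arrays.

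**Figure D2:**
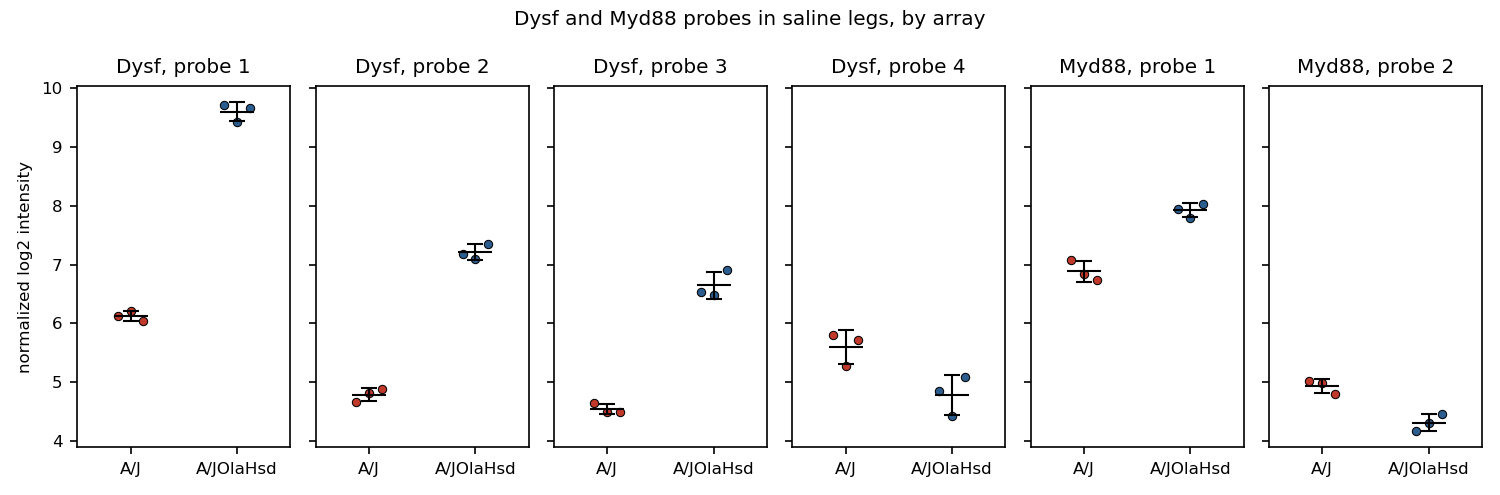
Normalized log2 intensity (vertical axis) of the 4 Dysf and 2 Myd88 probes, brightest first, on the 3 A/J (red) and 3 A/JOlaHsd (blue) saline arrays. Points are arrays, and bars show the mean ± SD. On the 3 brightest Dysf probes every A/J array lies below every A/JOlaHsd array, and on the dimmest the other way.

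Genes read by 2 or more probes allow a check on the probe, though not on the strain, since probes of a gene read the same RNA. There were 4299 such genes. All probes were higher in A/J for 258 of them and lower for 194, together 10.5%, while 515 (12.0%) had probes called in opposite directions. Among the opposed genes, 346 had all their probes designed on 1 transcript accession. Of the remaining genes, 2194 had a part of their probes called one way and 1138 none. Of the 5303 genes called on their main probe, 3076 were read by 1 probe and 452 had agreeing probes. Restricting the probes to those detected on all 6 saline arrays left 2014 genes, with all probes higher for 122, lower for 212 and opposed for 255 (12.7%). Opposed probes were thus not limited to dim ones. Of 2874 genes with exactly 2 tested probes, the differences of the pair had opposite signs in 1260 (43.8%).

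**Figure D3:**
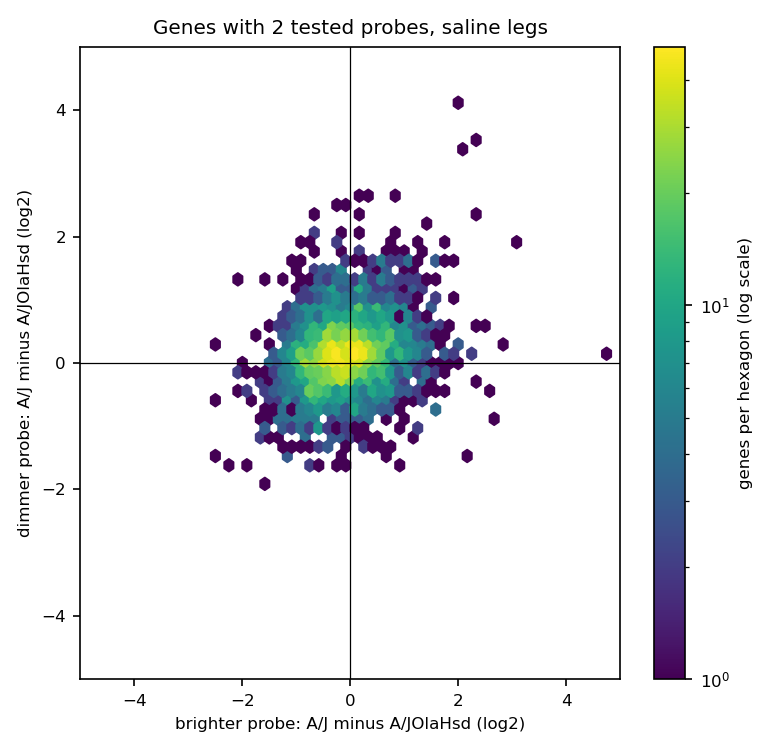
Difference between A/J and A/JOlaHsd saline legs on the dimmer probe (log2, vertical axis) against that on the brighter probe (log2, horizontal axis) for 2874 genes with exactly 2 tested probes. Colour gives the number of genes per hexagon on a log scale, and no gene lies outside the axes. The cloud is wide in every direction, and 1260 genes lie where the signs of the axes are opposite.

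Genes with all probes higher in A/J included several of the contractile apparatus and of energy metabolism. Myh1, a fast myosin heavy chain, read 11.89, 12.29 and 11.95 on the A/J arrays, against 10.53, 9.87 and 9.65 on the A/JOlaHsd arrays on its main probe. Its probes were higher by 2.03 and 4.04. All 3 probes of Csrp3, a Z-disc protein of muscle, were higher, the main one at 9.56, 10.79 and 10.24 on the A/J arrays, against 8.74, 8.83 and 9.22 on the A/JOlaHsd arrays, a difference of 1.27 ± 0.35 (SE, adjusted p = 0.00672) that was not called with array weights (adjusted p = 0.0633). Ndufb10, a subunit of respiratory complex I, read 9.85, 10.37 and 9.52 on the A/J arrays, against 8.12, 7.70 and 7.03 on the A/JOlaHsd arrays, a difference of 2.30 ± 0.24 (SE, adjusted p = 3.75e-06). The carnitine palmitoyltransferase of muscle, Cpt1b, which admits fatty acids to mitochondria, was higher by 1.30, and Acadvl, which starts the oxidation of very long chains, by 1.28 on their main probes, with a second probe of each called the same way. Mdh1, the malate dehydrogenase of the cytosol, was higher on all 3 probes, by 2.44 and 0.80 on the brighter ones, while the dimmest was detected on only 1 array. Not all probes of Mdh1 were called higher under cyclic loess or under either centring, on the centred values themselves. The A/J arrays lay above every A/JOlaHsd array on the main probe of each of these genes. Array 2 of A/J was the lowest for Mdh1 and the highest for Csrp3.

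Other genes with agreeing probes were regulators. Atf4, a transcription factor of the integrated stress response, had the largest agreeing increase by the probe nearest to 0, and read 10.29, 10.77 and 10.24 on the A/J arrays, against 8.22, 8.30 and 7.59 on the A/JOlaHsd arrays, a difference of 2.40 ± 0.17 (SE, adjusted p = 1.86e-07). Its second probe was higher by 3.49. The inhibitor of Akt signalling Phlda3, a target of p53, read 10.81, 9.75 and 10.23 on the A/J arrays, against 8.57, 7.67 and 8.46 on the A/JOlaHsd arrays, higher by 2.03 ± 0.36 (SE, adjusted p = 0.000308). Ccl27a, a chemokine gene, read 7.93, 7.90 and 8.13 on the A/J arrays, against 4.79, 4.34 and 5.52 on the A/JOlaHsd arrays, higher by 3.10. The mitochondrial glutaredoxin Glrx2 was higher by 1.78, the RNA helicase Ddx3x by 1.96, the proteasome subunit Psmd11 by 1.97, the nucleotidase Bpnt2 by 1.64, the kinase Stk25 by 1.66 and Resf1, a factor in silencing of retroelements, by 1.74. On values centred on detected probes, where the median gene stood at -0.60, not all probes of Psmd11 and of Resf1 were called higher. In A/J-MyD88 deficient saline legs the means were 9.96 for Atf4, 9.86 for Phlda3, 7.73 for Ccl27a and 11.86 for Myh1, each nearer to the A/J than to the A/JOlaHsd values.

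Genes with all probes lower in A/J included genes of myeloid cells, of complement and of the matrix. On values centred on all probes, where the median gene stood at 0.76, all probes stayed called for 1 of these 194 genes, Ugt1a10. On values centred on detected probes, where the median gene stood at -0.60, they stayed called for 193. All 3 probes of Lyz1, a lysozyme nearly identical to Lyz2 in sequence, were lower, and the main one read 10.96, 11.13 and 10.01 on the A/J arrays, against 11.80, 11.79 and 12.73 on the A/JOlaHsd arrays, a difference of -1.40 ± 0.28 (SE, adjusted p = 0.000746). Alox5ap, the activating protein of leukotriene synthesis in myeloid cells, read 6.42, 6.58 and 6.08 on the A/J arrays, against 8.01, 7.55 and 8.30 on the A/JOlaHsd arrays, a difference of -1.59 ± 0.22 (SE, adjusted p = 4.09e-05). Col6a1, a chain of collagen VI, read 9.83, 9.49 and 9.23 on the A/J arrays, against 10.86, 11.11 and 12.10 on the A/JOlaHsd arrays, and its 3 probes differed by -1.84, -1.42 and -0.57. Not all of them were called under cyclic loess. For Lyz1, Alox5ap and Col6a1 every A/J array was below every A/JOlaHsd array on the main probe. Collagen XIV (Col14a1) differed by -1.58 and Col6a2 by -1.46 on their main probes. C4a, a complement component nearly identical to C4b, differed by -1.51, and Serping1, the inhibitor of complement C1, by -1.30. The growth factor Igf1 differed by -1.59 and the ATP-gated channel P2rx4 by -1.25.

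The lowest agreeing gene by the probe nearest to 0 was Ugt1a10, an enzyme of glucuronidation. It read 5.03, 5.75 and 4.72 on the A/J arrays, against 7.29, 7.30 and 8.43 on the A/JOlaHsd arrays, a difference of -2.50 ± 0.33 (SE, adjusted p = 2.55e-05) on the main of 3 probes. The Ugt1a genes share their last exons, so which of them was read is uncertain. Angptl7, a secreted angiopoietin-like protein, read 6.03, 6.98 and 6.36 on the A/J arrays, against 9.05, 9.03 and 8.82 on the A/JOlaHsd arrays, a difference of -2.51 ± 0.41 (SE, adjusted p = 0.000141). The acid ceramidase Asah1 differed by -1.21, Crtap, which helps to hydroxylate collagen, by -1.21, the zinc transporter Slc30a5 by -1.48, the endoplasmic reticulum protein Tmem33 by -1.28, the ubiquitin ligase adaptor Klhl9 by -1.88 and the zinc finger gene Zfp386 by -1.95, the last not called with array weights (adjusted p = 0.0624). Tendon and clock genes are also among the agreeing genes, lower on both or all 3 of their probes. Comp, an oligomeric matrix protein of tendon and cartilage, differed by -1.50 on the main one, and Ciart, a repressor in the circadian clock, by -1.64.

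**Figure D4:**
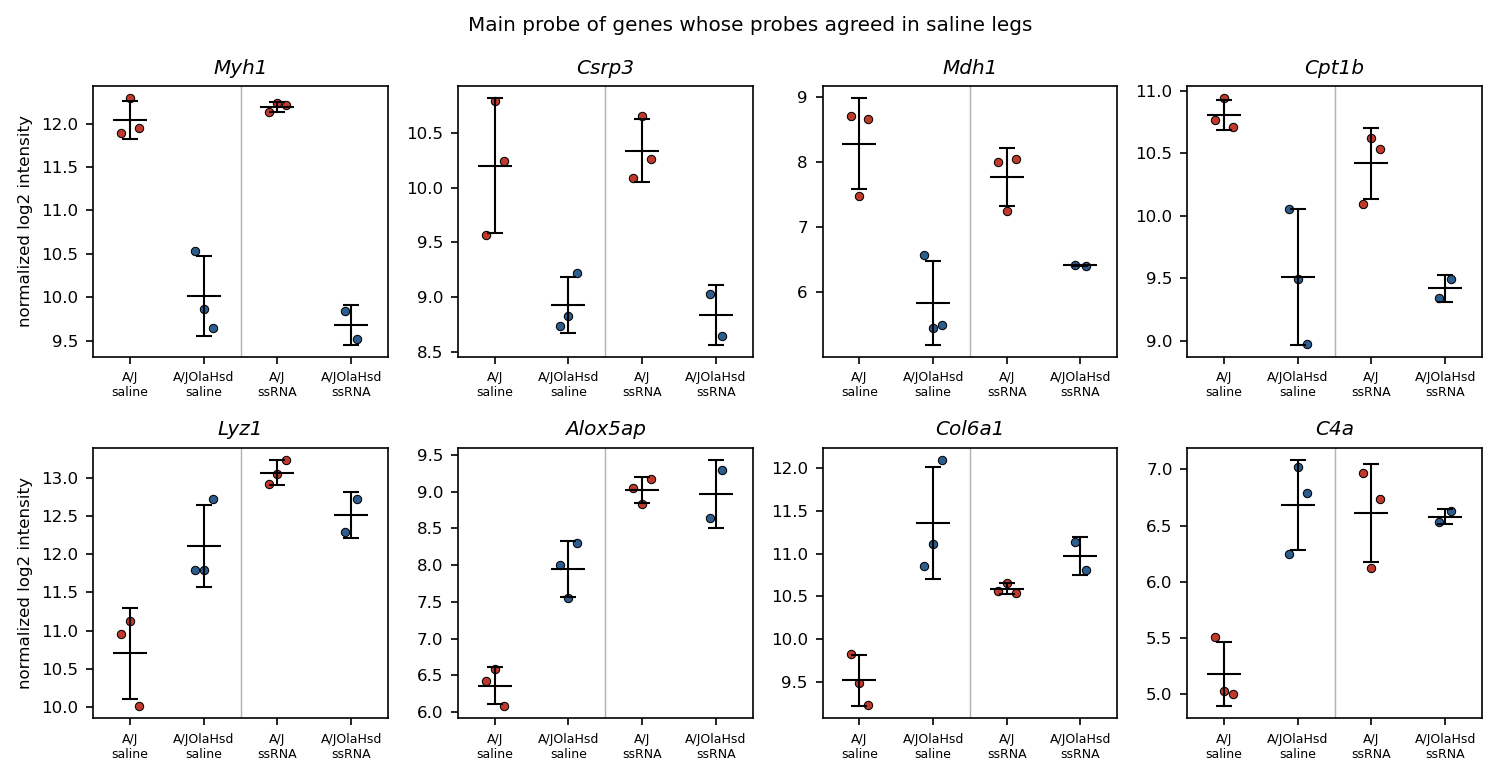
Normalized log2 intensity (vertical axes, 1 scale per gene) of the main probe of 8 genes whose probes all agreed, on A/J (red) and A/JOlaHsd (blue) arrays of saline legs, left, and ssRNA legs, right. Points are arrays, and bars show the mean ± SD. The upper 4 genes are higher in A/J in both pairs of legs, whereas the A/J values of Lyz1, Alox5ap and C4a are below A/JOlaHsd in saline legs and overlap or exceed them in ssRNA legs.

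Of 36 macrophage markers tested, 13 were lower and 2 higher in A/J saline legs, against 24.9% lower and 22.3% higher among all genes. Of the 13 lower markers, 1 had 2 or more probes that all agreed. The median member differed by -0.40, against -0.02 for all genes. Lyz2, the lysozyme of macrophages and neutrophils, read 8.45, 7.92 and 7.61 on the A/J arrays, against 10.45, 10.43 and 12.68 on the A/JOlaHsd arrays on its main probe. It differed by -3.19 ± 0.45 (SE, adjusted p = 4.72e-05), but a second bright probe differed by -0.45 (adjusted p = 0.423). Ms4a6d, a surface gene of macrophages, read 6.07, 6.57 and 5.89 on the A/J arrays, against 7.84, 8.02 and 10.03 on the A/JOlaHsd arrays, and differed by -2.46 ± 0.44 (SE, adjusted p = 0.000347). For both genes A/JOlaHsd array 3 stood above the other 2 A/JOlaHsd arrays. Retnla, a gene of alternatively activated macrophages, differed by -2.09. Mpeg1, the perforin-like gene of macrophages, went the other way, at 7.89, 7.89 and 5.64 on the A/J arrays, against 4.34, 4.33 and 4.22 on the A/JOlaHsd arrays, and was above background on no A/JOlaHsd array. It was at least 5.11-fold higher (adjusted p = 0.00868), but fell short of the threshold under cyclic loess (adjusted p = 0.0946) and with array weights (adjusted p = 0.0616). The summed linear level of the 36 markers was 2533 to 5212 on the A/J arrays and 8052 to 21146 on the A/JOlaHsd arrays. Leaving out single arrays left 11 to 14 markers lower.

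Antigen presentation, Toll-like receptor and chemokine genes were also lower more often than higher. Of 9 genes of MHC class II presentation, 5 were lower and none higher (median -0.69), and none of the 5 had 2 or more probes that all agreed. H2-DMa, which loads peptides on class II molecules, read 5.80, 5.49 and 5.13 on the A/J arrays, against 7.06, 7.26 and 8.24 on the A/JOlaHsd arrays, a difference of -2.05 ± 0.24 (SE, adjusted p = 1.05e-05), while a second, dimmer probe differed by -0.05 (adjusted p = 0.879). H2-DMb2 differed by -1.24, the class II chain H2-Eb1 by -1.20 and the invariant chain Cd74 by -0.87. Without A/JOlaHsd array 3, H2-DMb2 differed by -0.75 (adjusted p = 0.0122) and Cd74 by -0.54 (adjusted p = 0.143), and Cd74 was not called without A/J array 2 (-0.71, adjusted p = 0.103) or 3 (-0.70, adjusted p = 0.109) either. With array weights H2-Eb1 (adjusted p = 0.0744) and Cd74 (adjusted p = 0.294) were not called. In the Toll-like receptor pathway, 10 of 31 genes were lower and 3 higher (median -0.28). Tlr2, a receptor of bacterial lipoproteins at the cell surface, read 5.17, 4.77 and 4.56 on the A/J arrays, against 5.97, 6.04 and 6.46 on the A/JOlaHsd arrays, a difference of -1.32 ± 0.20 (SE, adjusted p = 9.01e-05). Tlr7, the endosomal receptor of single-stranded RNA, read 4.89, 4.99 and 4.50 on the A/J arrays, against 5.80, 5.65 and 6.72 on the A/JOlaHsd arrays, a difference of -1.26 ± 0.24 (SE, adjusted p = 0.000497), and was above background on 2 of 3 A/J arrays. Tlr13, a receptor of bacterial RNA in mice, differed by -1.17, a call lost without A/JOlaHsd array 3 (-0.55, adjusted p = 0.117) or A/J array 3 (-1.07, adjusted p = 0.0723). Tab2, an adaptor of the kinase TAK1, was higher by 1.20.

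Of 28 cytokine and chemokine genes, 12 were lower and 1 higher (median -0.44). Ccl9, a chemokine made by myeloid cells in mice, read 6.89, 6.91 and 6.34 on the A/J arrays, against 8.33, 8.17 and 9.66 on the A/JOlaHsd arrays, a difference of -2.01 ± 0.28 (SE, adjusted p = 4.94e-05). Cxcl1, which attracts neutrophils, differed by -1.12, and Ccl21a, which guides cells to lymph vessels, by -1.16, a call lost without A/JOlaHsd array 1 (-0.87, adjusted p = 0.0928) or 2 (-1.07, adjusted p = 0.0611) and without A/J array 1 (-1.12, adjusted p = 0.0546). Among complement genes, 8 of 13 were lower and none higher, with a median of -1.02. Cfp, which stabilizes the alternative pathway convertase, read 7.70 to 8.17 on the A/J arrays and 8.87 to 10.21 on the A/JOlaHsd arrays, a difference of -1.44, and C2 differed by -1.34. Of 14 inflammasome components, 4 were lower and none higher, but only 2 without A/JOlaHsd array 3 and 2 without A/J array 3. Casp1, the protease that matures interleukin-1β, read 5.87, 5.91 and 5.39 on the A/J arrays, against 6.96, 6.83 and 7.74 on the A/JOlaHsd arrays, a difference of -1.46 ± 0.24 (SE, adjusted p = 0.000184). The list medians for macrophage, class II, chemokine, complement and inflammasome genes lay below the median gene under quantile normalization, either centring (which give the same value relative to that gene), cyclic loess and no background correction. Of the neutrophil markers only 4 of 14 were tested, and S100a8 differed by -1.48.

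Matrix and fibroblast genes were lower more often than higher. Of 24 matricellular proteins and matrix enzymes, 13 were lower and 1 higher, with a median of -0.67. Of the 13 lower ones, 1 had 2 or more probes that all agreed. Fibronectin (Fn1) read 6.52, 5.45 and 5.66 on the A/J arrays, against 7.53, 8.04 and 9.74 on the A/JOlaHsd arrays, a difference of -2.55 ± 0.42 (SE, adjusted p = 0.000164), while its second probe was above background on none of these arrays. Tenascin C (Tnc), a matrix protein of injured and growing tissue, read 5.42, 5.12 and 4.95 on the A/J arrays, against 7.08, 6.81 and 8.40 on the A/JOlaHsd arrays, a difference of -2.26 ± 0.32 (SE, adjusted p = 4.67e-05). Thrombospondin 2 (Thbs2) read 6.65, 6.58 and 5.82 on the A/J arrays, against 8.26, 8.79 and 9.20 on the A/JOlaHsd arrays, a difference of -2.40 ± 0.26 (SE, adjusted p = 6.0e-06). Lysyl oxidase (Lox), which cross-links collagen, differed by -1.64. Of 13 fibrillar and other collagens, 5 were lower and 1 higher (median -0.32). Of 17 fibroblast markers, 8 were lower and 1 higher, with a median of -0.99. Dpp4, a surface peptidase of fibroblast progenitors, read 5.35, 5.28 and 5.21 on the A/J arrays, against 6.78, 7.53 and 7.93 on the A/JOlaHsd arrays, a difference of -2.13 ± 0.21 (SE, adjusted p = 2.52e-06), gelsolin (Gsn) differed by -2.12 and Mfap5, a microfibril protein, by -1.96. The medians of these 3 lists lay below that of all genes under every scaling, by only 0.04 for the collagens under both centrings. The summed level of the 17 fibroblast markers was 8045 to 11594 on the A/J arrays and 10717 to 11976 on the A/JOlaHsd arrays, which overlap.

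Markers of tendon, fat, smooth muscle and blood had calls mostly lower in A/J, while Schwann cell genes were higher for 3 and lower for 1 of 11. Of 7 tendon markers, 3 were lower and 1 higher, with a median of -1.0. Chad, a leucine-rich matrix protein of cartilage and tendon, read 5.68, 5.45 and 5.67 on the A/J arrays, against 9.10, 8.25 and 8.86 on the A/JOlaHsd arrays, a difference of -3.14 ± 0.37 (SE, adjusted p = 1.19e-05), and Kera, a matrix proteoglycan, differed by -1.19. The summed level of the tendon markers was 312 to 418 on the A/J arrays and 793 to 1185 on the A/JOlaHsd arrays. Among adipocyte markers, 4 of 12 were lower and none higher (median -0.35). Adiponectin (Adipoq) read 4.31, 4.77 and 4.37 on the A/J arrays, against 5.80, 7.90 and 5.32 on the A/JOlaHsd arrays and leptin (Lep) 4.23, 4.23 and 4.26 on the A/J arrays, against 4.75, 7.12 and 5.78 on the A/JOlaHsd arrays, and A/JOlaHsd array 2 was the highest for both. Leptin was above background on no A/J array, and adiponectin on 1, and leptin was at least 2.53-fold lower in A/J. Without A/JOlaHsd array 2 Adipoq differed by -1.10 (adjusted p = 0.0951) and Lep by -1.06 (adjusted p = 0.00336). Smooth muscle and pericyte genes were lower for 5 of 12 and higher for none (median -0.25, but above the median gene by 0.05 under both centrings), and their probes disagreed. The myosin light chain kinase Mylk differed by -1.50 on its main probe but by -0.04 (adjusted p = 0.880) and -0.23 (adjusted p = 0.183) on 2 others, and smooth muscle actin (Acta2) by -0.92, -0.77, -0.62 and 0.41 on its 4 probes, the last 2 not called. Of 5 erythroid genes, 2 were lower, 1 was higher and 2 were not called. The haemoglobin gene Hba-a1, whose copies are nearly identical, read 11.11, 11.15 and 11.88 on the A/J arrays, against 13.27, 13.67 and 12.58 on the A/JOlaHsd arrays, a difference of -1.80 ± 0.30 (SE, adjusted p = 0.000170). The part of tendon, fat, vessel or blood tissue in the RNA of each array was not tested.

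Proliferation genes were lower for 10 of 25 and higher for 1, with a median of -0.42. Of the 10 lower ones, 1 had 2 or more probes that all agreed. The mitotic kinase gene Aurka read 6.38, 6.83 and 6.75 on the A/J arrays, against 8.52, 9.06 and 8.49 on the A/JOlaHsd arrays, a difference of -2.03 ± 0.25 (SE, adjusted p = 1.33e-05). Prc1, a protein of the dividing spindle, differed by -1.50, and by -0.97 (adjusted p = 0.00473) without A/JOlaHsd array 3. The centromeric histone Cenpa differed by -1.25 and the replication helicase subunit Mcm4 by -0.94. Relative to the median gene, limma did not call Mcm4 under either centring (-0.34, adjusted p = 0.114 and 0.0522). The summed level of the proliferation genes was 595 to 709 on the A/J arrays and 1173 to 1867 on the A/JOlaHsd arrays. Regulators of muscle formation were split, with 4 higher (2 without A/J array 2) and 8 lower of 19, and only 4 lower without A/JOlaHsd array 3, 5 without A/J array 1 and 5 without A/J array 2. Follistatin (Fst), an inhibitor of myostatin, differed by -1.10. None of 7 developmental sarcomere genes was called by limma on its main probe, and 0 had an unadjusted p under 0.05 there, but further probes of Myh8 and Actc1 were called higher. Embryonic and neonatal genes mark fibres that regenerate, and the neonatal myosin Myh8 read 10.12, 9.87 and 9.54 on the A/J arrays, against 8.24, 10.03 and 8.83 on the A/JOlaHsd arrays, with a difference of 0.81 ± 0.39 (SE, adjusted p = 0.102), which was 0.42 (adjusted p = 0.397) without A/JOlaHsd array 1 and passed the threshold without array 2 (1.31, adjusted p = 0.00752). Its other 2 probes, dimmer but detected on all 6 arrays, were higher by 1.43 (adjusted p over all probes = 0.00211) and 1.09 (adjusted p = 0.0144). The cardiac actin Actc1 differed by 0.59 ± 0.28 (SE, adjusted p = 0.0939), and by 0.31 (adjusted p = 0.400) without A/J array 1. Its second probe, also detected on all 6 arrays, was higher by 1.60 (adjusted p over all probes = 0.00113).

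Fibre and energy genes were higher more often than lower in A/J saline legs. Few of the higher genes had 2 or more probes that all agreed. These were 2 of 8 for slow fibre and 1 of 8 for fast fibre genes. They were 1 of 13 for glycolysis, 1 of 12 for the citric acid cycle and 0 of 18 for the respiratory chain. Of 14 slow fibre genes, 8 were higher and 1 lower, with a median of 0.70, the highest of the lists. Myoz2, which tethers calcineurin to the Z-disc, read 8.58, 9.57 and 9.80 on the A/J arrays, against 7.63, 7.55 and 6.88 on the A/JOlaHsd arrays, higher by 1.96 ± 0.30 (SE, adjusted p = 9.11e-05), and Ankrd2, a stretch-responsive protein, was higher by 1.28. Of 17 fast fibre genes, 8 were higher and 3 lower (median 0.30), although under cyclic loess 7 were higher and 7 lower and the median lay 0.14 below that of all genes. Myh4, the fastest myosin heavy chain, read 12.50, 12.41 and 12.31 on the A/J arrays, against 10.42, 10.42 and 10.0 on the A/JOlaHsd arrays, higher by 2.13 ± 0.31 (SE, adjusted p = 5.58e-05). The troponin gene Tnnt3 was higher by 0.81. Of 12 general markers of muscle fibres, 6 were higher and none lower, or 5 higher and 2 lower under cyclic loess and 8 and 1 under either centring. Their summed level was 90705 to 93687 on the A/J arrays and 65490 to 72378 on the A/JOlaHsd arrays, with no overlap.

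Glycolysis and glycogen genes were higher for 13 of 24 and lower for 2, with a median of 0.44. The glycolytic kinase Pgk1 read 11.80, 11.63 and 11.57 on the A/J arrays, against 10.51, 10.13 and 9.55 on the A/JOlaHsd arrays, higher by 1.60 ± 0.18 (SE, adjusted p = 7.71e-06). Phka1, a regulatory subunit of phosphorylase kinase, was higher by 2.05 on its main probe, but its 3 probes did not agree. The glycogen branching enzyme Gbe1 was detected on every A/J array and on no A/JOlaHsd array, and was at least 2.13-fold higher. The lactate transporter Slc16a3 was higher by 1.46. For the citric acid cycle and pyruvate dehydrogenase, 12 of 23 were higher and 1 lower (median 0.33), and 7 were higher without A/J array 1. The mitochondrial malate dehydrogenase Mdh2 read 11.10, 11.25 and 11.06 on the A/J arrays, against 9.84, 9.23 and 8.49 on the A/JOlaHsd arrays, higher by 1.95 ± 0.24 (SE, adjusted p = 1.48e-05), and the pyruvate dehydrogenase kinase Pdk2 was higher by 1.70. Respiratory chain subunits were higher for 18 of 43 and lower for 8 (median 0.29), with 5 lower without A/J array 2. Sdhd of complex II read 8.62, 8.57 and 8.29 on the A/J arrays, against 6.05, 6.64 and 5.72 on the A/JOlaHsd arrays, higher by 2.36 ± 0.26 (SE, adjusted p = 5.61e-06), Ndufb9 of complex I was higher by 2.02 and Atp5a1 of the ATP synthase by 1.61. Fatty acid oxidation was evenly split, with 10 higher and 9 lower of 30, and the muscle fatty acid carrier Fabp3 was higher by 1.43.

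Membrane repair genes were split, with 10 higher and 10 lower of 31 and a median of 0.00. Beside Dysf, Capn1, a calcium-activated protease that acts on torn membranes, read 7.05, 7.57 and 6.93 on the A/J arrays, against 5.18, 4.17 and 4.38 on the A/JOlaHsd arrays, higher by 2.60 ± 0.23 (SE, adjusted p = 1.07e-06), and was above background on 1 of 3 A/JOlaHsd arrays. Cav3, the caveolin of muscle that binds dysferlin, read 7.63, 7.22 and 7.68 on the A/J arrays, against 6.27, 6.29 and 5.81 on the A/JOlaHsd arrays, higher by 1.39 ± 0.18 (SE, adjusted p = 2.04e-05). Cavin1, a coat protein of caveolae, was higher by 2.71 on its main probe and differed by -0.86 on the other, so its direction is not settled. In the dystrophin-glycoprotein complex, 5 of 17 were higher and 1 lower (median 0.05). The neuronal nitric oxide synthase gene Nos1, whose protein docks to this complex, read 6.61, 6.99 and 7.31 on the A/J arrays, against 4.61, 5.30 and 5.78 on the A/JOlaHsd arrays, higher by 1.74 ± 0.34 (SE, adjusted p = 0.000593). Dystroglycan (Dag1) was higher by 1.46 on its main probe, while a second, detected on all 6 arrays, differed by 0.54 (adjusted p over all probes = 0.132), and sarcospan (Sspn) differed by -0.97 ± 0.14 (SE, adjusted p = 5.32e-05).

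Genes of excitation-contraction coupling were higher for 7 of 19 and lower for 4, with a median of 0.31, and 2 were lower without A/J array 2. Stac3, which links the voltage sensor to calcium release, read 8.57, 8.24 and 9.03 on the A/J arrays, against 7.35, 7.23 and 7.40 on the A/JOlaHsd arrays, higher by 1.29 ± 0.22 (SE, adjusted p = 0.000194), and the calcium-binding Casq2 was higher by 1.08. Jph1, which joins T-tubules to the sarcoplasmic reticulum, was higher by 2.09 on its main probe and differed by -1.45 on the other. At the neuromuscular junction, 3 of 12 genes were higher, or 5 without A/JOlaHsd array 1, and none lower (median 0.19). Chrne, the acetylcholine receptor subunit of adult junctions, read 7.41, 7.07 and 7.45 on the A/J arrays, against 5.77, 5.58 and 6.0 on the A/JOlaHsd arrays, higher by 1.53 ± 0.20 (SE, adjusted p = 2.98e-05), and acetylcholinesterase (Ache) was higher by 0.96.

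Turnover and clock genes gave single large differences within split lists, while stress genes were called higher more often than lower. Of 27 immediate early and heat shock genes, 10 were higher and 3 lower, with a median of -0.03. The small heat shock protein gene Hspb7 read 9.98, 9.73 and 10.09 on the A/J arrays, against 7.97, 7.35 and 8.05 on the A/JOlaHsd arrays, higher by 2.15 ± 0.19 (SE, adjusted p = 1.48e-06), and Hspb1 was higher by 1.41. In the clock and glucocorticoid list, 6 were higher and 4 lower of 19, and 3 and 2 without A/JOlaHsd array 3, with 2 lower also without A/J array 1. The clock repressor Nr1d2 read 8.35, 8.78 and 8.15 on the A/J arrays, against 6.48, 6.70 and 6.33 on the A/JOlaHsd arrays, higher by 1.92 ± 0.18 (SE, adjusted p = 1.90e-06), and Bhlhe40 was higher by 1.10. Of 23 atrophy and autophagy genes, 7 were higher and 6 lower, and 3 lower without A/JOlaHsd array 3. The autophagosome protein gene Map1lc3b was higher by 1.83 and Atg9a by 1.52. Lysosomal genes were higher for 5 and lower for 5 of 17, with 2 higher without A/JOlaHsd array 2, A/J array 1 or A/J array 2. The protease cathepsin L (Ctsl) differed by -1.61 and legumain (Lgmn) by -1.35, or -0.90 (adjusted p = 0.00428) without A/JOlaHsd array 3. Cathepsin C (Ctsc) read 4.40, 8.28 and 7.69 on the A/J arrays, against 4.33, 4.48 and 4.42 on the A/JOlaHsd arrays. It was above background on 2 of 3 A/J arrays and on no A/JOlaHsd array, on each of its 3 probes, and A/J array 1 lay among the A/JOlaHsd arrays. Its main probe was at least 4.01-fold higher in A/J (adjusted p = 0.00650), a call lost under cyclic loess (adjusted p = 0.159) or with array weights (adjusted p = 0.140). Interferon-induced genes were higher for 4 and lower for 3 of 29, with 1 lower without A/JOlaHsd array 2, A/J array 2 or A/J array 3. The GTPase gene Irgm1 was higher by 1.58 on its main probe and differed by -0.67 on the other. The interferon-induced gene Ifi27l2a differed by -0.84 ± 0.30 (SE, adjusted p = 0.0316), and its arrays overlapped. Without A/JOlaHsd array 2 it differed by -0.47 (adjusted p = 0.180), without A/J array 1 by -0.78 (adjusted p = 0.0832) and without A/J array 3 by -0.67 (adjusted p = 0.122).

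**Figure D5:**
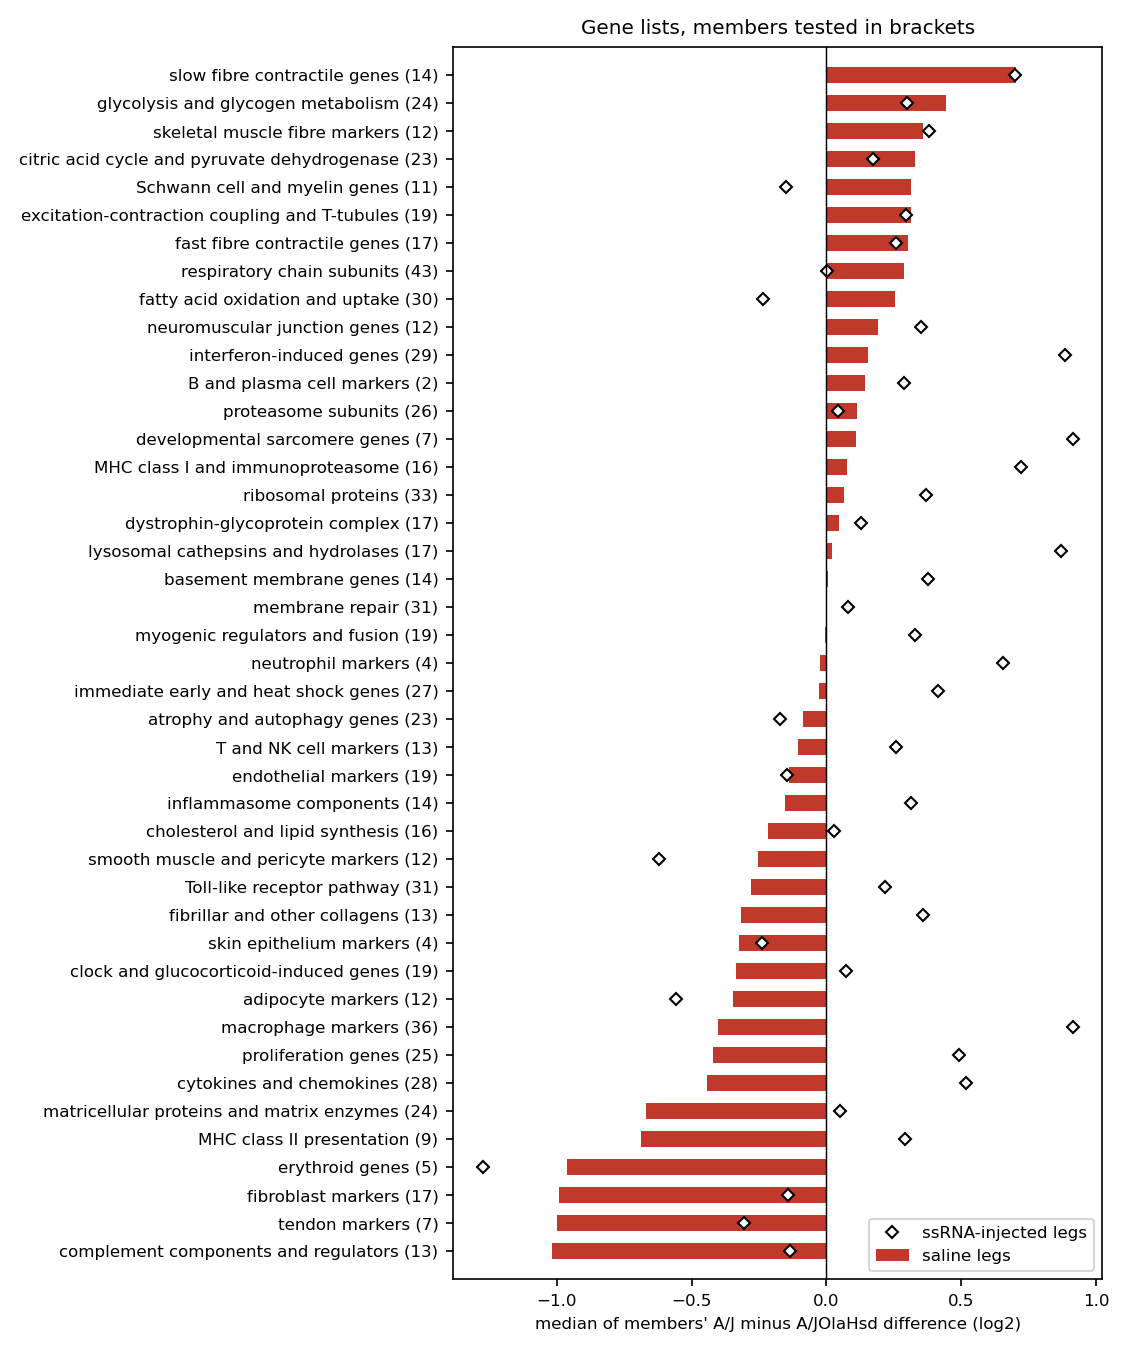
Median difference between A/J and A/JOlaHsd over the tested members of each of 43 gene lists (log2, horizontal axis), with the number of members tested in brackets. Red bars are saline legs and open diamonds ssRNA legs. Complement, tendon, fibroblast and erythroid lists lie lowest in saline legs and slow fibre genes highest, and the macrophage diamond lies at 0.91 where the bar lies at -0.40.

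Some genes were above background in 1 strain only. Every A/J array and no A/JOlaHsd array detected 440 genes, of which 360 were called, and every A/JOlaHsd array and no A/J array detected 50, of which 49 were called. The lower share of detected probes on the A/JOlaHsd arrays runs the same way as this imbalance. For such a gene the fold is a bound against the lowest signal detected on the arrays that lack it. Tomm22, a receptor of the import pore in the outer mitochondrial membrane, read 9.31, 9.67 and 9.26 on the A/J arrays, against 4.70, 4.77 and 4.38 on the A/JOlaHsd arrays, at least 24.7-fold higher, but its second probe was above background in neither strain. Csrp1, a LIM domain protein of smooth muscle, read 8.76, 7.36 and 8.63 on the A/J arrays, against 4.23, 4.44 and 4.16 on the A/JOlaHsd arrays, at least 11-fold higher, and Il6st, the shared receptor chain gp130 of interleukin-6 cytokines, read 7.52, 7.96 and 7.69 on the A/J arrays, against 4.19, 4.2 and 4.27 on the A/JOlaHsd arrays, at least 7.65-fold higher. Cbwd1 was at least 5.68-fold higher. In the other direction, Ecrg4, which encodes the secreted peptide augurin, read 4.36, 4.49 and 4.25 on the A/J arrays, against 7.43, 7.28 and 6.37 on the A/JOlaHsd arrays, at least 5.58-fold lower in A/J. Haptoglobin (Hp), a haemoglobin-binding plasma protein, was at least 2.91-fold lower, with A/JOlaHsd array 2 far above the others, and lost its call without that array (-0.99, adjusted p = 0.0689). The cytochrome gene Cyp2f2 was at least 2.70-fold lower, the endophilin gene Sh3gl2 at least 2.64-fold and the branched-chain aminotransferase gene Bcat1 at least 2.44-fold. Among genes with 1 probe that was detected in both strains, Tmem64 read 9.43, 9.08 and 9.43 on the A/J arrays, against 5.85, 5.42 and 6.02 on the A/JOlaHsd arrays, higher by 3.55 ± 0.17 (SE, adjusted p = 9.15e-10), and Cmss1 was higher by 3.25, detected on 2 of 3 A/JOlaHsd arrays.

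Opposed probes were widest apart in 6 genes, Dysf among them. For Sparc, a collagen-binding matrix protein, the main probe read 10.55, 10.06 and 10.21 on the A/J arrays, against 10.66, 10.67 and 11.25 on the A/JOlaHsd arrays, a difference of -0.59, and a second differed by -1.25. The third read 8.45, 8.07 and 7.80 on the A/J arrays, against 4.38, 4.61 and 4.22 on the A/JOlaHsd arrays, called higher (adjusted p over all probes = 0.000353), with no A/JOlaHsd array above background. The main-probe call was lost without A/JOlaHsd array 3 (-0.39, adjusted p = 0.0693) or A/J array 2 (-0.48, adjusted p = 0.0593). For the chaperone Hspa8, probes were higher by 0.36 and 2.38 and differed by -1.83, all 3 detected on all 6 arrays, and the main-probe call was lost on leaving out A/JOlaHsd array 2 or 3 or A/J array 2 or 3 (adjusted p between 0.0674 and 0.147). For Acaa2, a thiolase of fatty acid oxidation, 3 probes differed by -1.49, -1.66 and -1.12 and 1 was higher by 2.0, all bright and all designed on 1 transcript accession. The main probe, by its mean over all 17 arrays, is the one that was higher, so the list value of Acaa2 has the direction of 1 probe in 4. The phosphatase gene Ptpre had 1 probe higher by 2.83 and 1 lower, at -1.07, with 2 dim probes not called, and Nme7, a nucleoside diphosphate kinase family gene, had 3 higher and 2 lower of 6. Among genes named from their main probe, Atp5a1 and Cd74 had a further probe that was detected on all 6 arrays and not called, and Myoz2, Nos1, Nr1d2, Pgk1, Slc16a3, Atg9a, Gsn, Ms4a6d and Tlr13 had one that was dimmer, above background on part of the arrays or none, and not called. The sequences behind these probes were not used here, so which transcripts or variants they read was not tested.

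The ssRNA legs, by the study's design the opposite legs of the same mice, compared the strains on other arrays. There 5071 of 11233 genes (45.1%) were called, 2416 (21.5%) higher and 2655 (23.6%) lower in A/J. Of the genes higher in A/J saline legs, 1513 were also higher in A/J ssRNA legs, which is 60.5% of the saline list and 62.6% of the ssRNA list. Of those lower, 1713 were lower in both, 61.2% and 64.5% of the lists. Opposite calls were made for 17 genes higher and 60 lower in saline legs. Raw mean signal was 138.4 to 147.3 on the A/J and 37.4 to 41.5 on the A/JOlaHsd ssRNA arrays, wider apart than in saline legs, so strain and array set cannot be told apart there either. For genes with agreeing probes, 169 of 258 higher and 120 of 194 lower genes were called the same way in ssRNA legs on the main probe.

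Opposite legs come from 1 mouse by the study's design, though no label ties arrays to a mouse. The strain difference itself was tested between legs within 1 fit, which takes the arrays as independent. It differed for 850 genes (7.57%), 554 with a lower and 296 with a higher value in saline legs. With same-numbered legs of a strain as a random block, 1123 genes were called, among them all 850. The difference was called for 142 of the 2502 genes higher in A/J saline legs and 322 of the 2801 lower. The saline values that chose these genes also enter this test, so these counts are not independent of that choice. The same holds for genes named by their saline difference. Several fibre and other genes named above kept their strain difference in ssRNA legs. Myh1 differed there by 2.51 (adjusted p = 1.15e-06), Myh4 by 2.03 (adjusted p = 0.000214), Hspb7 by 2.16 (adjusted p = 3.38e-06) and Atf4 by 2.19 (adjusted p = 1.51e-06), and for these 4 genes the difference between legs was not called. The same held for Chad at -3.00 (adjusted p = 4.59e-05), Hba-a1 at -2.05 (adjusted p = 0.000152) and Aurka at -1.85 (adjusted p = 7.52e-05) among genes lower in A/J. Tomm22 averaged 9.41 in A/J and 4.22 in A/JOlaHsd ssRNA legs.

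Several myeloid and matrix genes did not keep it on their main probes. Lyz2 differed by -0.26 (adjusted p = 0.703) in ssRNA legs, Ms4a6d by 0.40 (adjusted p = 0.536), Fn1 by -0.04 (adjusted p = 0.959), Tnc by 0.41 (adjusted p = 0.364) and Casp1 by 0.22 (adjusted p = 0.523), and the change between legs was called for each (adjusted p = 0.0189, 0.0202, 0.0279, 0.00759 and 0.0158 in that order). Another probe was called higher in A/J ssRNA legs for Lyz2 (1.64, adjusted p over all probes = 0.0127), Ms4a6d (1.32, 0.0188), Fn1 (1.15, 0.000109) and Tnc (1.09, 0.00689). Those of Ms4a6d and Fn1 were dim in saline legs, and a further dim probe of Lyz2 and of Tnc was not called. By list, 23 of 36 macrophage markers, 12 of 25 proliferation genes and 7 of 24 matricellular genes and matrix enzymes had a called change between legs, against 7.57% of all genes and 1 of 43 respiratory chain subunits. In ssRNA legs 19 macrophage markers were higher in A/J and 2 lower, with a median of 0.91. In saline legs of A/J-MyD88 deficient mice, Lyz2 averaged 10.83, Ms4a6d 8.89, Tnc 7.23 and Casp1 6.71. These means lay nearer to the A/JOlaHsd than to the A/J saline legs, while those of Retnla (6.56), Dpp4 (6.04) and Aurka (7.08) lay nearer to A/J. The mean raw signal of these arrays was 121.0 to 132.9, and its part in these values was not tested.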

How the data were processed

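Total RNA of tibialis anterior muscle was hybridised to Illumina bead arrays. The deposited intensities are probe signals on a linear scale, exported from GenomeStudio (per the submitters' processing notes; version not given) without normalization. A detection p-value for each probe and array was deposited beside them, per the file headers, and moves in steps of 1 in 936. A second deposited table of intensities was, by its columns, quantile-normalized within each strain, so it was not used between strains. No column was left unmapped.

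From the table without normalization, R 4.3.3 and limma 3.58.1 were used. Background correction and quantile normalization used neqc with an offset of 16 over 17 arrays, A/JOlaHsd ssRNA array 2 left out. A probe was kept if 3 or more arrays gave it a detection p under 0.05 (20825 of 45281 probes), and 17492 of these had 1 symbol in the platform annotation, matched to mouse assembly GRCm38.p6. Each gene was represented by its brightest probe (highest mean log2 over the 17 arrays). A mean per group was fitted (lmFit, eBayes, 11 residual degrees of freedom), tests were two-sided, and p-values were adjusted by Benjamini and Hochberg over all genes, or over all probes where a probe is tested, and called under 0.05. ± is the standard error of the fit where marked SE and otherwise the SD between arrays. A bound is the mean of the higher group minus the mean in the lower group after each array's value was set to at least that array's lowest detected signal. The code was tested on simulated data.

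The comparison and the 43 gene lists (965 genes, 752 tested) were chosen with earlier results of these data known. Named genes were Dysf and Myd88, the 10 highest and lowest genes with agreeing probes, the 6 highest and lowest main probes, the 5 highest and lowest genes detected in 1 strain only, the 6 genes with the widest opposed probes, and up to 4 called members of each list (2 members where none was called), and not every one is described. Deviations of same-numbered A/J and A/JOlaHsd saline arrays, which come from different mice, correlated at -0.07, 0.04 and -0.03. Pairs of different number correlated at -0.11 to 0.15, so no pairing by number was seen. With 3 arrays per strain, this check cannot exclude a shared run or handling. Each saline leg has its ssRNA leg on the same mouse by the study's design, though no label ties arrays to a mouse, and same-numbered saline and ssRNA arrays correlated at 0.40, 0.44 and 0.14 for A/J, at 0.47, 0.17 and 0.17 for MyD88 deficient mice, and at -0.13 and -0.11 for A/JOlaHsd, which has 2 ssRNA arrays.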

Additional observations from a re-analysis of the deposited data

Results flagged for a closer look

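For the genes below, the A/J minus A/JOlaHsd difference was not the same in saline and ssRNA legs by the fit's own test of that difference (limma, adjusted p under 0.05 over all genes), and the value given is the saline difference minus the ssRNA difference on the log2 scale. Among genes of macrophages and of innate signalling, it was -2.94 for Lyz2, -1.96 for Lyz1, -2.85 for Ms4a6d, -1.64 for Alox5ap, -1.29 for Tlr2, -1.44 for Tlr7, -0.91 for Myd88, -1.68 for Casp1 and -1.59 for P2rx4. For secreted or presenting molecules it was -2.17 for Ccl9, -1.95 for Ccl4, -1.45 for Cxcl1, -1.54 for C4a and -1.46 for H2-DMa. The interferon-induced genes stood at -3.16 (Ifi27l2a) and -1.54 (Trim30a), and lysosomal genes at -2.07 (Lgmn) and -1.11 (Asah1).

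Matrix genes had values of -2.52 for Fn1, -2.67 for Tnc, -1.69 for Thbs2, -1.75 for Lox, -1.18 for Sparc, -1.46 for Col6a1, -1.44 for Col14a1 and -1.35 for Mfap5. Proliferation genes had -2.06 for Prc1, -1.80 for Cenpa and -1.10 for Mcm4. The remaining values were -1.88 for Ugt1a10, -1.52 for Bcat1 and 0.83 for Ache, the one positive value among these genes, whereas 296 of all 850 called genes had a positive value. Most named genes were chosen on their saline difference, which enters this test, so these signs are not independent of that choice. All 32 genes named here stayed called with same-numbered legs of a strain as a block.

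In saline legs Trim30a was at least 1.57-fold higher in A/J on the quantile-normalized values, above background on no A/JOlaHsd array. This limma call was lost under cyclic loess (0.28, adjusted p = 0.469). Relative to the median gene it was also lost under either centring (0.46, adjusted p = 0.172 and 0.175). In ssRNA legs Trim30a averaged 6.94 in A/J and 4.23 in A/JOlaHsd. Ccl4 and Ifi27l2a had called differences of opposite direction in the pairs of legs, at -0.94 (at least 1.55-fold lower in A/J) and -0.84 in saline legs and 1.0 and 2.33 in ssRNA legs. Ccl4 was above background on no A/J saline array. The ssRNA values rest on 2 A/JOlaHsd arrays.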

How the results depend on the processing

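Between saline legs, 5303 genes were called, and 4556 to 5488 when 1 of the 6 arrays was left out. Keeping all 18 arrays, including the one without muscle signal, gave 822 (594 higher and 228 lower in A/J), and a 2-fold minimum gave 1345. Centring on all probes gave 7801, 7723 of them higher and 78 lower, and centring on probes detected on every array, chosen after seeing the data, gave 8368 (1500 higher, 6868 lower). The split was 1569 to 2533 of 4102 with every saline array required to detect the probe, and 1959 to 2894 of 4853 under cyclic loess.

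Genes with agreeing probes numbered 452, and 328 to 477 without single arrays. There were 25 on 18 arrays, 291 when the 6 saline arrays were normalized and fitted alone, 272 without the filter, 2026 under centring on all probes and 1841 under centring on detected probes. Of the 258 higher genes, 90 stayed called on all probes under all 5 scalings, and of the 194 lower genes 1, Ugt1a10. For these counts the centred values were not set against the median gene, which stood at 0.76 and -0.60 under the centrings. That shift enters every difference counted. In ssRNA legs 5071 genes were called, 1783 on 18 arrays, 9071 and 8196 under the 2 centrings, and 4001 to 4669 without single arrays, where a lone A/JOlaHsd array is assumed to vary like the other groups. With the replicate number as a block, although no pairing of the strains' saline arrays by it was seen, the counts of these 3 kinds of calls were 5300, 448 and 5036. For the change of the strain difference between legs, 850 genes were called, and 1123 with same-numbered legs of a strain as a replicate block, chosen after seeing the data.

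Of 131 named genes, 79 lost their call on 18 arrays and none reversed there, and 8 lost it with array weights (Zfp386, Mpeg1, Sparc, Hspa8, H2-Eb1, Cd74, Csrp3 and Ctsc). Relative to the median gene, 9 lost it under centring on all probes. These were Myd88, Sparc, H2-Eb1, Cd74, Ccl21a, Mcm4, Ifi27l2a, Trim30a and Lgmn. Under centring on detected probes 7 lost it, the same genes without Myd88 and Lgmn. Acaa2 reversed to -1.52 with the 6 saline arrays alone, where another probe is the brightest, while as means over their probes Acaa2 stood at -0.57 (adjusted p = 0.115) and Sparc at 0.62 (adjusted p = 0.0744), reversed in sign and not called. Beyond that, the cause of these shifts was not tested. Values and calls of named genes under the centrings are relative to the median gene. Gene counts and probe agreement under them use the centred values as they stand, as do the turned directions given above. The low signal of the A/JOlaHsd arrays limits what dim genes can show.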

Other observations

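Several gene groups not described so far had calls in both directions between A/J and A/JOlaHsd saline legs, where 22.3% of all genes were higher and 24.9% lower in A/J. Ribosomal protein genes were higher for 12 and lower for 9 of 33, and proteasome subunits higher for 9 and lower for 6 of 26. Endothelial markers were higher for 1 and lower for 5 of 19, and lower for 3 without A/JOlaHsd array 1 or A/J array 2. Genes of MHC class I and the immunoproteasome were higher for 3 and lower for 5 of 16, and the counts went as low as 1 and 2 when single arrays were left out. Markers of T and NK cells were higher for 2 and lower for 1 of 13, and Schwann cell and myelin genes were higher for 3 (1 without A/J array 2) and lower for 1 of 11.

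Eif2s3y, a gene of the Y chromosome chosen after its values were seen, was detected on all 6 saline arrays, at 8.67, 9.11 and 8.44 on the A/J arrays, against 8.16, 7.98 and 7.72 on the A/JOlaHsd arrays, while its second probe was above background on 1 of them. With genes split into 4 equal bins of mean level, the median difference between the strains was 0.06 in the dimmest bin and -0.13 in the brightest, where 698 genes were higher and 974 lower in A/J.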
